A study of Rattus norvegicus with 48 samples.

Results

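Transcripts of 10 chemokines of the CXC and CX3C families were followed in rat cortical cultures: Cxcl1, Cxcl2, Cxcl9, Cxcl10, Cxcl11, Cxcl12, Cxcl13, Cxcl14, Cxcl16 and Cx3cl1. They were taken by symbol from the deposited table of 30211 genes, and all 10 were found there. The table holds 48 RNA-seq libraries in 16 groups of 3. The cultures were grown from fetal Sprague-Dawley rat cortex and hold neurons together with glia, although the labels give the cell type as neuron. They were untreated (Control) or received cocaine (25 µM, 24 h; Cocaine), the HIV-1 protein Tat (6 ng/mL, 48 h; Tat) or both (Tat-Cocaine). One of 4 compounds was given alone, with Tat, or with Tat and cocaine: 4OI (4-octyl itaconate, a cell-permeable ester of itaconate, 250 µM), Amlexanox (an inhibitor of the kinases TBK1 and IKK-epsilon, 25 µM), Tazemetostat (an EZH2 inhibitor, 3 µM) or Senicapoc (a blocker of a calcium-activated potassium channel, 1 µM). The resulting groups are named by their additions, for example 4OI, Tat-4OI and Tat-Cocaine-4OI. No group combined a compound with cocaine but without Tat. Per the paper, cocaine was added after 48 h of Tat and left for 24 h more. The total time with Tat may therefore differ between cultures with and without cocaine. Tat was added as recombinant protein, so the cultures model exposure to 1 viral protein and not infection. Nothing in the labels says whether the 3 libraries of a group came from separate preparations, and p-values therefore measure only the spread between these samples.

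Chemokines are small secreted proteins that draw cells bearing the matching receptor. CXC chemokines with an ELR motif, such as Cxcl1 and Cxcl2, act on CXCR2 and recruit neutrophils. Cxcl9, Cxcl10 and Cxcl11 are the interferon-inducible ligands of CXCR3 on activated T cells, and Cxcl13 draws B cells through CXCR5. Cxcl12 acts on CXCR4 and is cleared by the scavenging receptor ACKR3, Cxcl14 is a constitutive chemokine of epithelia and brain, and Cxcl16 is a membrane-bound ligand of CXCR6. Cx3cl1 (fractalkine) is the only CX3C chemokine, is made by neurons in the brain, and is read by microglia through CX3CR1.

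Values are CPM, read counts of a gene scaled by library size and by TMM factors, as deposited. Depth, read from the value of 1 read, was 17.5 to 29.1 M reads on genes per library, and 0.5 CPM stood for 8.58 to 15 reads. Lists of marker genes were summed per library to check the label of the cultures. Neuronal markers summed to between 792 and 3448 CPM, astrocytic markers to between 5137 and 12141 CPM, and microglial markers to between 367 and 3969 CPM. Endothelial markers stayed at or under 7.79 CPM and lymphocyte markers at or under 0.347 CPM, so that the T and B cells that CXCR3 and CXCR5 ligands address were near 0 in the RNA. One library stood apart: Cocaine replicate 3 held 25065 CPM of oligodendrocyte markers, against at most 2500 (2499.9) CPM in the other 47. Microglial markers were highest in replicate 2 in every group except Tat-Cocaine, where the sums were 1793, 1082 and 1642 CPM. In bulk RNA, fewer cells of a type and less RNA per cell cannot be told apart.

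**Figure D1:**
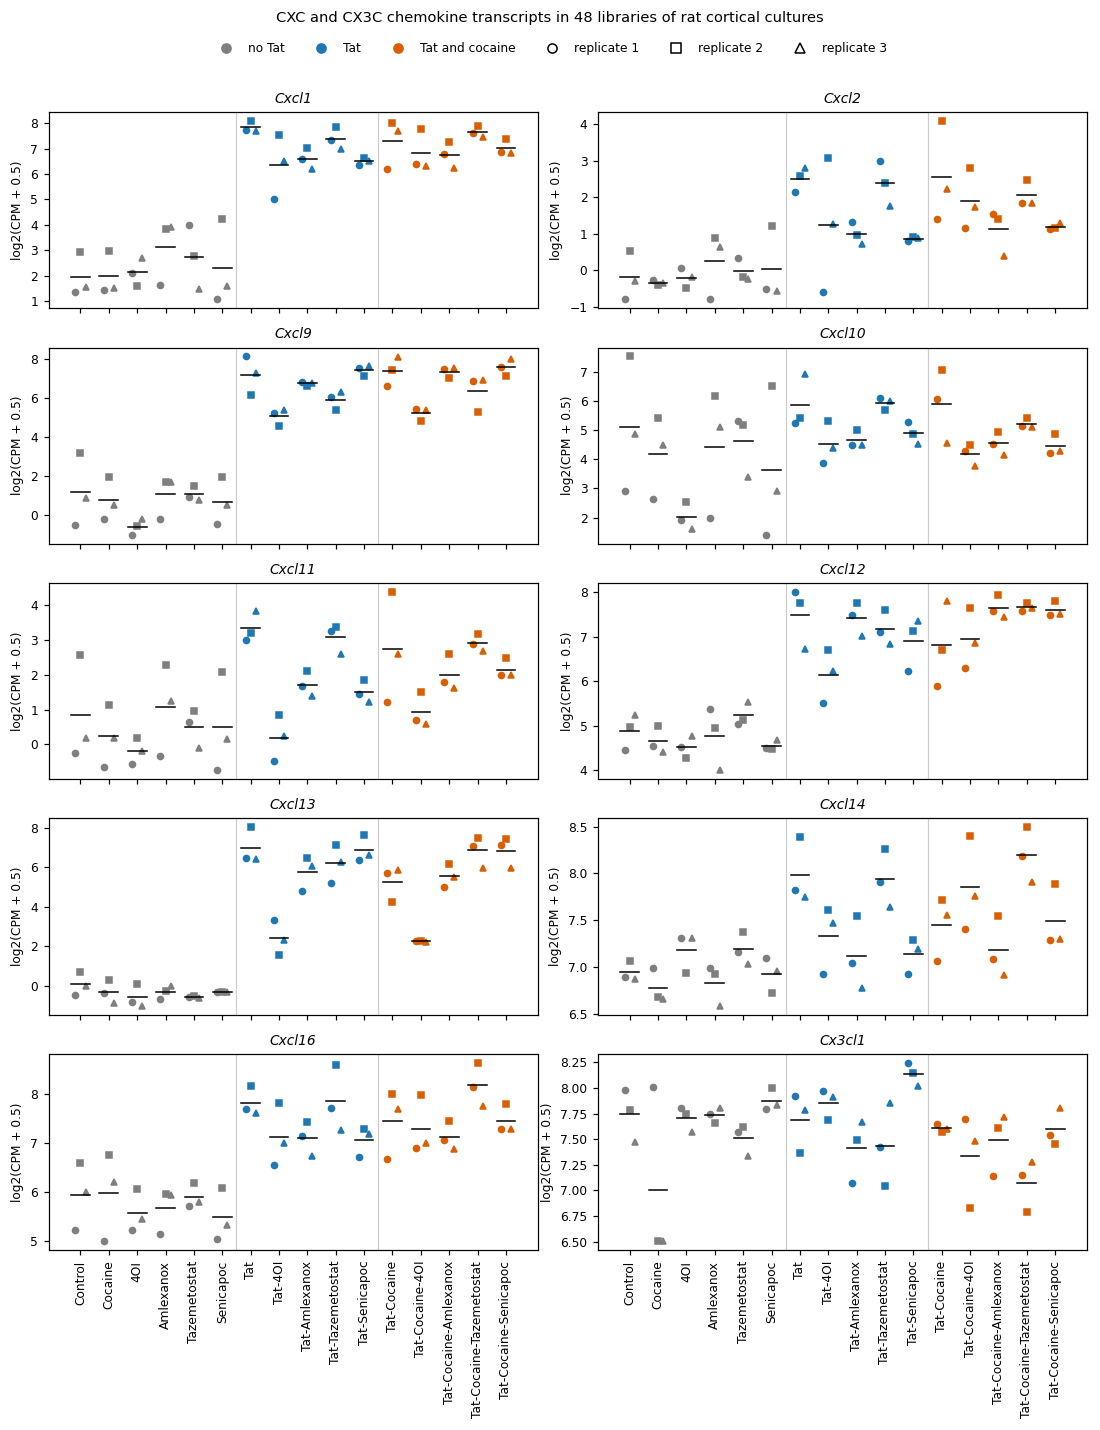
Level of each chemokine transcript, as log2(CPM + 0.5), in every library (vertical axes differ in range). Columns are the 16 groups, symbols the 3 replicates, horizontal bars the group means and colours the presence of Tat and cocaine. For Cxcl1, Cxcl9 and Cxcl13, all 30 libraries with Tat lie above all 18 without Tat, and for Cxcl13 the 6 libraries with Tat and 4OI lie below the other 24 with Tat.

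The plot of levels by library showed a division by Tat before any test. In 3 of the 10 members, Cxcl1, Cxcl9 and Cxcl13, no library with Tat overlapped a library without it, a pattern seen in 0.548% of the 15890 genes tested. Cxcl1 lay between 1.60 and 18.3 CPM (median 3.23) in the 18 libraries without Tat and between 32 and 271 CPM (median 126) in the 30 with Tat. Cxcl9 lay between 0 and 8.53 CPM (median 1.07) without Tat and between 23.2 and 276 CPM (median 113) with Tat. Cxcl13 lay between 0 and 1.13 CPM (median 0.292) without Tat and between 2.47 and 259 CPM (median 65.3) with Tat. The ranges of Cxcl12 all but separated, 15.4 to 45.9 CPM without Tat and 44.8 to 258 CPM with it. At the other end, Cx3cl1 ran from 90.3 to 257 CPM without Tat and from 110.2 to 303 CPM with it, so that the ranges coincided.

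All 10 members passed the filter for testing (at least 0.5 CPM in at least 3 libraries). Low levels were confined to 4 of them. Cxcl2 reached 0.5 CPM in 35 of 48 libraries, Cxcl9 in 41, Cxcl11 in 40 and Cxcl13 in 33, while the other members reached it in all 48. Cxcl9 and Cxcl13 were each at 0 in 1 library, both of the group 4OI.

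Tat alone was compared with Control to ask which chemokine transcripts respond to the viral protein. Of the 10 members, 8 were higher in Tat and 0 lower, against 14.6% of all genes higher and 6.7% lower (limma, Benjamini-Hochberg adjusted p under 0.05). The median log2 fold change of the members was 2.56, and that of all genes tested 0.0075. After quantile normalization 54.6% of the calls over all genes were higher, against 68.5% here, and the same number of members was called. Cxcl13 changed most, followed by Cxcl9 and Cxcl1, and the 2 members not called were Cxcl10 and Cx3cl1.

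Among the neutrophil-recruiting ligands, Cxcl1 stood at 2.07, 7.11 and 2.45 CPM in the Control libraries and at 211, 271 and 208 CPM in the Tat libraries. All Tat values were far above all Control values, and the fitted rise was 59.2-fold (log2 fold change 5.89 ± 0.68, SE, n = 3 and 3, limma adjusted p = 5.8e-08). Cxcl2 stood at 0.0767, 0.932 and 0.318 CPM in Control and at 3.90, 5.47 and 6.48 CPM in Tat, again without overlap. It rose by 2.7 ± 0.61 on the log2 scale (limma adjusted p = 0.0014), a value that the added 0.5 CPM makes smaller than the plain ratio because Control was near the floor of detection.

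Of the 3 ligands of CXCR3, Cxcl9 and Cxcl11 were called and Cxcl10 was not, and the genes were not tested against each other. The 95% interval of the log2 fold change of Cxcl10 (-1.18 to 2.71) overlapped that of Cxcl11 (1.15 to 3.86). Cxcl9 stood at 0.192, 8.53 and 1.32 CPM in Control and at 276, 68.9 and 156 CPM in Tat, a rise of 64.1-fold (log2 fold change 6.00 ± 0.65, limma adjusted p = 1.6e-08). Cxcl11 stood at 0.345, 5.44 and 0.635 CPM in Control and at 7.5, 8.64 and 13.7 CPM in Tat, a log2 fold change of 2.50 ± 0.67 (limma adjusted p = 0.0061). Cxcl10, the third ligand, stood at 6.98, 183 and 28.5 CPM in Control and at 37.2, 42 and 122 CPM in Tat. Its groups overlapped through Control replicate 2, which was above all Tat libraries while the other Control libraries were below them, and its log2 fold change of 0.77 ± 0.96 was not called (limma adjusted p = 0.59).

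Control replicate 2 was the highest Control library for all 3 CXCR3 ligands. It also held 1927 CPM of microglial markers, against 1083 and 1090.5 CPM in the other Control libraries; the part of these markers in the Cxcl10 level was not tested. Without this library the log2 fold change of Cxcl10 was 1.98 and still not called (limma adjusted p = 0.15), and without Control replicate 1 it was -0.33 (adjusted p = 0.86). The call of Cxcl11 was lost without Control replicate 1 (log2 fold change 1.96, adjusted p = 0.0697).

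Cxcl13, the B-cell chemokine, stood at 0.230, 1.13 and 0.499 CPM in Control and at 87.2, 259 and 84.1 CPM in Tat. No Tat library came near the Control range, and the fitted rise was 118-fold (log2 fold change 6.88 ± 0.53, limma adjusted p = 1.4e-11). The added 0.5 CPM bears on this fold, since the Control values were near it, and the plain ratio of means was 232. Cxcl12, a constitutive chemokine of brain and vessel wall, stood at 21.3, 30.5 and 37.2 CPM in Control and at 258, 218 and 105 CPM in Tat. The groups did not overlap and the rise was 6.15-fold (log2 fold change 2.62 ± 0.39, limma adjusted p = 5.6e-06). Cxcl16 rose from 36.4, 95.8 and 63.2 CPM to 206, 285 and 194 CPM, by 1.89 ± 0.41 on the log2 scale (limma adjusted p = 0.00097). Cxcl14 rose from 119, 133 and 117 CPM to 226, 335 and 214 CPM, the smallest called change (log2 fold change 1.04 ± 0.23, limma adjusted p = 0.0013).

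Cx3cl1, the neuronal ligand of microglia, stood at 252, 219 and 177 CPM in Control and at 241, 165 and 219 CPM in Tat. The groups overlapped, and the log2 fold change was -0.06 with a 95% interval from -0.57 to 0.46. Beside these changes, 3 of 8 microglial markers were higher in Tat and 0 lower, against 14.6% of all genes higher and 6.7% lower. The marker sums lay between 1083 and 1927 CPM in Control and between 1444 and 2629 CPM in Tat. Neuronal markers had 0 of 7 called by limma in either direction (2 at an unadjusted p under 0.05), with sums of 2170 (2169.9) to 3220 (3220.4) CPM in Control and 1127 to 2116 CPM in Tat. Of 6 astrocytic markers 2 were lower, and none of the tested oligodendrocyte (7), endothelial (3), or fibroblast and mural (5) markers was called (0, 0 and 1 at an unadjusted p under 0.05). Of 4 neutrophil markers 1 was tested, S100a8, and it was higher (log2 fold change 3.30, limma adjusted p = 1.2e-07). The 4 neutrophil markers summed to between 0.0908 and 0.686 CPM in Control and between 4.49 and 8.67 CPM in Tat, nearly all of it S100a8; Elane was at 0 in both groups. The part of the cell makeup in the chemokine changes was not tested.

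**Figure D2:**
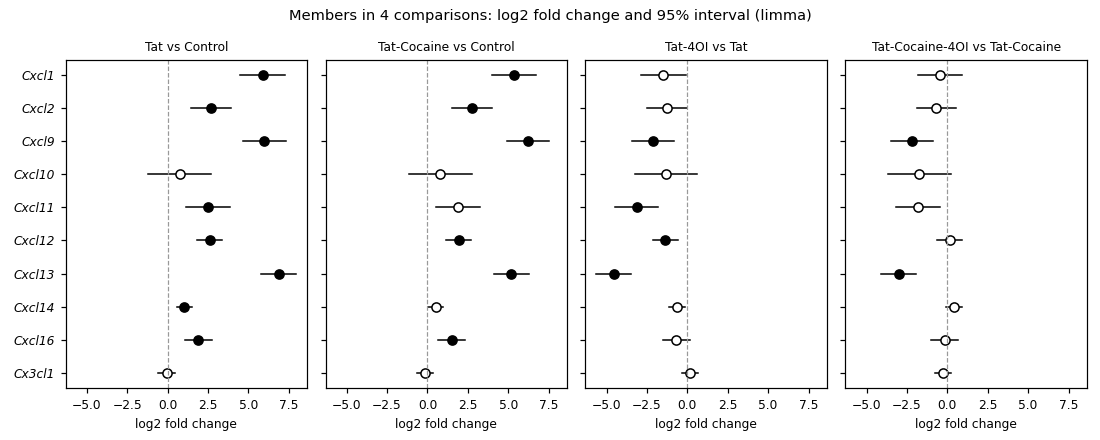
Log2 fold change of each member (points) with its 95% interval (lines) from limma in 4 comparisons; filled points passed an adjusted p of 0.05. Tat raised 8 members and Tat-Cocaine 6, Tat-4OI was lower than Tat in 4, and Tat-Cocaine-4OI was lower than Tat-Cocaine in Cxcl9 and Cxcl13.

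The promoters of all 10 members, called or not, were compared in RefSeq windows (assembly GRCr8). The windows run from 250 bases before to 50 bases after each annotated start, and all 10 members had a window. Of the 10 members, 6 lie on chromosome 14. Windows were searched on both strands for 3 motifs: an NF-kB motif of 10 bases, the GAS motif TTCNNNGAA and an ISRE-type motif, which is GAAA, any 2 bases and GAAA. The NF-kB motif was found in 4 of 10 members (Cxcl1, Cxcl2, Cxcl10 and Cxcl11) and in 7.51% of all 33469 windows. The GAS motif was found in 2 of 10 members (Cxcl9 and Cxcl11) and in 8.87% of all windows, and the ISRE-type motif in Cxcl10 alone and in 3.92% of all windows. The 250 bases before the start are shown for the 4 members with an NF-kB match and for Cxcl13, which had the largest rise and no match; capitals mark bases within a match to any of the motifs. The windows are chr14:17479322-17479571 (minus strand) for Cxcl1, chr14:17467256-17467505 (minus strand) for Cxcl2, chr14:15988816-15989065 (plus strand) for Cxcl10, chr14:15973478-15973727 (plus strand) for Cxcl11 and chr14:13917921-13918170 (minus strand) for Cxcl13, each written in the direction of the gene.
Cxcl1 promoter: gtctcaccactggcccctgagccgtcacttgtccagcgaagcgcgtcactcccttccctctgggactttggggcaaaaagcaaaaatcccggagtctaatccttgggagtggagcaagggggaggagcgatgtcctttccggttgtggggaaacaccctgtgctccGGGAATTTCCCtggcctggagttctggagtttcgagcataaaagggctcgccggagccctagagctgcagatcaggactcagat
Cxcl2 promoter: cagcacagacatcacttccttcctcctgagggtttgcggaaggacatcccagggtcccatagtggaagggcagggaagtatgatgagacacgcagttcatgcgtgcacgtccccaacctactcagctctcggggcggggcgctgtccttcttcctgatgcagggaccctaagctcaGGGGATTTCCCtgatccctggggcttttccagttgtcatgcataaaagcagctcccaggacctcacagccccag
Cxcl10 promoter: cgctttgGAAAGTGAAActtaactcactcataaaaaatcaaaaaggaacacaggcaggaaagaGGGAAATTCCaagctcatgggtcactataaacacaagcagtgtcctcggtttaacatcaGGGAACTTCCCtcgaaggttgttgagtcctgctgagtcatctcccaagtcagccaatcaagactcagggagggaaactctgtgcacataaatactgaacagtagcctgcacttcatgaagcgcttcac
Cxcl11 promoter: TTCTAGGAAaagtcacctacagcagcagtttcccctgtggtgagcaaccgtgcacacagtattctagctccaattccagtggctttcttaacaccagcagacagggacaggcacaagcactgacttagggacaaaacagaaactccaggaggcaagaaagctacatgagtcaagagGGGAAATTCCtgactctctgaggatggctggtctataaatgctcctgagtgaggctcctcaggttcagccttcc
Cxcl13 promoter: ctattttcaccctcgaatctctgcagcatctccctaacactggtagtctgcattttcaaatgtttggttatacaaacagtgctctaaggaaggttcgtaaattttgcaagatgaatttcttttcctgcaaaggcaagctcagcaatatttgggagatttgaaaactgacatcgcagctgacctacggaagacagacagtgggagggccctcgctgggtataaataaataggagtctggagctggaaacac
In Cxcl1 the capitals are 2 overlapping NF-kB matches, on opposite strands, 84 to 74 bases before the start, and in Cxcl2 the like run lies 74 to 64 bases before it. In Cxcl10 they are, in order, the ISRE-type match (243 to 234 bases before the start), an NF-kB match (187 to 178) and a pair of overlapping NF-kB matches (128 to 118). In Cxcl11 a GAS match opens the window and an NF-kB match lies 74 to 65 bases before the start. The GAS match of Cxcl9 lies 33 to 41 bases after the start and is not shown. Of the members that hold the NF-kB motif, Cxcl1, Cxcl2 and Cxcl11 rose with Tat, and Cxcl10, which holds 3 matches, was not called. Of those that do not, Cxcl9, Cxcl12, Cxcl13, Cxcl14 and Cxcl16 rose with Tat, and Cx3cl1 was not called. A match is a description of letters in the window, not of binding.

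**Figure D3:**
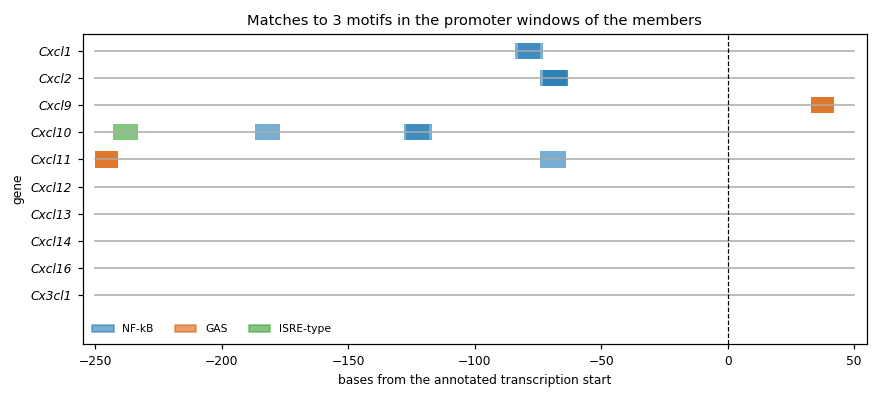
Position of matches to the NF-kB, GAS and ISRE-type motifs in the promoter windows of the 10 members, in bases from the annotated start (dashed line); darker blue marks overlapping matches. Cxcl1, Cxcl2, Cxcl10 and Cxcl11 have NF-kB matches, and Cxcl12, Cxcl13, Cxcl14, Cxcl16 and Cx3cl1 have no match to any of the 3.

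Cocaine was compared with Control to ask whether it acts on the chemokines without Tat, and 0 of 10 members were called by limma (1 at an unadjusted p under 0.05), against 0.201% of all genes; without Cocaine replicate 3 the count was also 0. Cx3cl1 was that 1 member. It stood at 257, 90.3 and 90.4 CPM in Cocaine, so that replicate 1 lay above all Control libraries and replicates 2 and 3 lay below them. Its log2 fold change was -0.74 ± 0.25 (limma adjusted p = 0.20), -0.49 without Cocaine replicate 2 or 3 (adjusted p = 0.51 and 1.00) and -1.24 without Cocaine replicate 1 (adjusted p = 0.00034). Neuronal markers summed to 2906, 1184 and 1065 CPM in the same 3 libraries, and their part in the Cx3cl1 level was not tested. The log2 fold changes of the other 9 members lay between -0.91 and 0.046. That of Cxcl10, at 5.71, 42.2 and 22 CPM in Cocaine, was -0.91 with a 95% interval from -2.86 to 1.03, and that of Cxcl1 was 0.017 with an interval from -1.35 to 1.39.

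In Tat-Cocaine, 6 of 10 members were higher than in Control and 0 lower, against 8.63% of all genes higher. Cxcl9 stood at 97.6, 173 and 269 CPM in Tat-Cocaine (log2 fold change 6.21 ± 0.65, limma adjusted p = 2.3e-08). Cxcl1 stood at 73.3, 259.5 and 204 CPM (5.35 ± 0.68, adjusted p = 6.1e-07), and Cxcl13 at 51.6, 18.8 and 57.4 CPM (5.19 ± 0.53, adjusted p = 1.4e-08). Cxcl2 (log2 fold change 2.76), Cxcl12 (1.93) and Cxcl16 (1.52) were the other 3. Cxcl11 stood at 1.83, 20.2 and 5.52 CPM, overlapped Control and just missed the threshold (log2 fold change 1.89 ± 0.67, adjusted p = 0.0504); with the replicate number as a block its adjusted p was 0.0040. Cxcl14 stood above Control in all 3 libraries at 134, 210.1 and 188 CPM and was not called (log2 fold change 0.50, adjusted p = 0.15). With only the compared groups in the fit, Cxcl2, Cxcl12 and Cxcl16 lost their calls and 3 members were called.

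Between Tat-Cocaine and Tat, 0 of 10 members were called by limma (2 at an unadjusted p under 0.05), against 0.0189% of all genes. The largest difference was in Cxcl13, where all Tat-Cocaine libraries lay below all Tat libraries. Its log2 fold change was -1.68 ± 0.53 with a limma adjusted p of 0.41. Cxcl14 was also lower in all 3 libraries (-0.54 ± 0.23, adjusted p = 0.59). When cocaine was compared over all 5 backgrounds with Tat (none and each compound), 0 of 10 members were called by limma (1 at an unadjusted p under 0.05), against 4.55% of all genes. Cxcl13 had a log2 fold change of -0.29 in this comparison, with a 95% interval from -0.77 to 0.19. That of Cx3cl1 was -0.29 with an interval from -0.51 to -0.06 (limma adjusted p = 0.14). A difference in total time with Tat, where present, cannot be told apart from cocaine in either comparison.

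The effect of 4OI on the response to Tat was read from Tat-4OI against Tat. Of the 10 members, 4 were lower in Tat-4OI (Cxcl13, Cxcl11, Cxcl9 and Cxcl12) and 0 higher, against 9.48% of all genes lower and 6.1% higher. The median log2 fold change of the members was -1.34, and that of all genes -0.00019. Of the calls over all genes 39.2% were higher, and 49.98% after quantile normalization.

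Cxcl13 stood at 9.52, 2.47 and 4.48 CPM in Tat-4OI, all far below the 84.1 to 259 CPM of the Tat libraries and all above Control. It fell 23.5-fold (log2 fold change -4.56 ± 0.53, limma adjusted p = 2.0e-07), and it was called with each library left out in turn. Cxcl11 stood at 0.214, 1.29 and 0.681 CPM in Tat-4OI, below all Tat libraries and overlapping Control. It fell 8.83-fold (-3.14 ± 0.67, limma adjusted p = 0.0013). The added 0.5 CPM bears on this fold, since the Tat-4OI values were near it. Cxcl9 stood at 36.1, 23.2 and 41.4 CPM, below all Tat libraries but above all Control libraries, and fell 4.35-fold (-2.12 ± 0.65, adjusted p = 0.023). Cxcl12 stood at 44.8, 103 and 74.5 CPM, each under the lowest Tat library, and fell 2.56-fold (-1.36 ± 0.39, adjusted p = 0.015). The calls of Cxcl9 and Cxcl12 were not kept in every fit: both were lost in the fit to the 21 libraries without the other 3 compounds (adjusted p = 0.084 and 0.073) and without Tat replicate 1 (adjusted p = 0.12 and 0.086).

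The other 6 members were not called in Tat-4OI. Cxcl1 stood at 32, 187 and 89.5 CPM, below all Tat libraries, with a log2 fold change of -1.48 ± 0.68 (limma adjusted p = 0.13). Cxcl2 stood at 0.161, 7.90 and 1.90 CPM, and its replicate 2 was above all Tat libraries. Without Tat-4OI replicate 2, both were called, Cxcl1 at -2.08 (adjusted p = 0.047) and Cxcl2 at -2.17 (adjusted p = 0.011). Cxcl14 just missed the threshold (122, 195 and 177 CPM, log2 fold change -0.65, adjusted p = 0.054). Cxcl10 stood at 14.3, 39.1 and 20.5 CPM (adjusted p = 0.34), Cxcl16 at 92.5, 224 and 127 CPM (adjusted p = 0.24), and Cx3cl1 at 250.05, 206 and 240.3 CPM (log2 fold change 0.17, adjusted p = 0.68).

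In Tat-Cocaine-4OI against Tat-Cocaine, 2 of 10 members were lower and 0 higher, against 3.29% of all genes lower. Cxcl13 stood at 4.35, 4.31 and 4.21 CPM in Tat-Cocaine-4OI, a narrow range under the lowest Tat-Cocaine library of 18.8 CPM. It fell 8.09-fold (log2 fold change -3.02 ± 0.53, limma adjusted p = 0.00024). Cxcl9 stood at 42.8, 27.8 and 40.3 CPM, again without overlap, and fell 4.51-fold (-2.17 ± 0.65, adjusted p = 0.034). The call of Cxcl9 was lost under 4 other settings and without any of 5 libraries (adjusted p up to 0.12). Cxcl11 stood at 1.12, 2.33 and 0.991 CPM (-1.8 ± 0.67, adjusted p = 0.096), and Cxcl12, called in the cultures without cocaine, stood at 78.3, 201 and 116 CPM here (0.14 ± 0.39, adjusted p = 0.88).

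The difference between these 4OI effects was tested as a contrast of its own. For 4OI in Tat-Cocaine minus 4OI in Tat, 0 of 10 members were called by limma (3 at an unadjusted p under 0.05), and 0% of all genes. The difference for Cxcl12 was 1.49 on the log2 scale with a 95% interval from 0.39 to 2.60 (adjusted p = 0.37), and that for Cxcl9 was -0.05 with an interval from -1.91 to 1.80. The 2 effects of 4OI on Cxcl12 are thus not shown to differ.

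Whether 4OI lowered the response to Tat beyond its effect without Tat was tested as the response to Tat in the presence of 4OI minus that in its absence. Cxcl13 was the 1 member of 10 called in this contrast, lower, against 0.447% of all genes lower. Its response to Tat was 6.88 on the log2 scale without 4OI and 2.98 with 4OI, a difference of -3.90 ± 0.75 (limma adjusted p = 0.0063). The added 0.5 CPM bears on this value, since Cxcl13 was at or under 0.561 CPM in the 4OI libraries: with 0.1 CPM in its place the difference was -3.21 and not called (adjusted p = 0.12). It was also not called with only the 4 groups in the fit (adjusted p = 0.089), in the fit to 21 libraries (adjusted p = 0.078) and without Tat replicate 2, the library with 259 CPM (-3.37, adjusted p = 0.051). For Cxcl11 the difference was -2.12 with a 95% interval from -4.04 to -0.21 (adjusted p = 0.38), and for Cxcl9 it was -0.36 with an interval from -2.22 to 1.49. The added 0.5 CPM bears on both, since in the 4OI libraries Cxcl11 was at or under 0.647 CPM and Cxcl9 at or under 0.375 CPM.

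**Figure D4:**
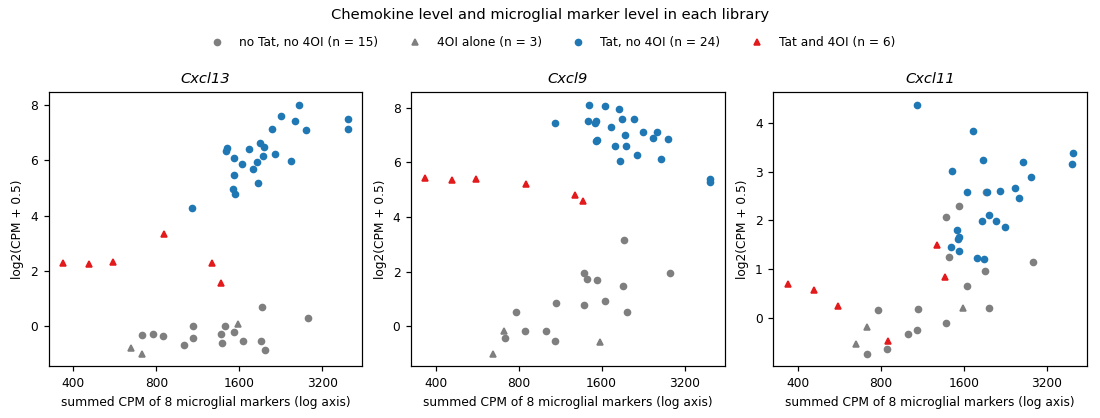
Level of Cxcl13, Cxcl9 and Cxcl11, as log2(CPM + 0.5), against the summed CPM of 8 microglial markers (log axis) in each of 48 libraries, by the presence of Tat and 4OI. The 6 libraries with Tat and 4OI (triangles, 367 to 1370 CPM of markers) lie at the low end of the marker sums, and their Cxcl13 is below that of the 24 other libraries with Tat (1082 to 3969 CPM of markers).

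Microglial markers moved in the same comparisons. They summed to 851, 1370 (1369.6) and 559 CPM in Tat-4OI against 1444, 2629 and 1728 CPM in Tat. Of the 8 markers 2 were lower and 0 higher, against 9.48% of all genes lower. At an unadjusted p under 0.05 by limma the count was 7 of 8, and the median log2 fold change of the markers was -1.08. In Tat-Cocaine-4OI the markers summed to 367, 1277 and 458 CPM. There 3 of 8 were lower than in Tat-Cocaine (4 at an unadjusted p under 0.05 by limma), against 3.29% of all genes. The median log2 fold change of the markers was -0.97. The part of the marker level in the chemokine levels was not tested. The plot of chemokine against marker levels gives both for each library. Over the libraries with Tat, Cxcl13 in the 6 with 4OI (2.47 to 9.52 CPM, median 4.33) did not overlap the 24 without 4OI (18.8 to 259 CPM, median 78.4), a pattern held by 1 of the 10 members and by 1.34% of all genes. The marker sums of the same 2 sets overlapped, with medians of 705 and 1886 CPM.

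Given alone, 4OI called 0 of 10 members by limma (2 at an unadjusted p under 0.05), against 3.15% of all genes. Those 2 were Cxcl10 and Cxcl9. Cxcl10 stood at 3.28, 5.26 and 2.59 CPM in 4OI, below all Control libraries (6.98, 28.5 and 183 CPM), a log2 fold change of -3.07 ± 0.96 (limma adjusted p = 0.075). With the replicate number as a block it was called (adjusted p = 0.020), and in 4OI vs Control the same-numbered libraries deviated together. Cxcl9 stood at 0, 0.172 and 0.375 CPM in 4OI (-1.76 ± 0.65, adjusted p = 0.17). The added 0.5 CPM bears on this value, since all 4OI values were under it, and the plain ratio of means was 0.0546. Amlexanox alone called 0 members by limma (0 at an unadjusted p under 0.05), against 11.4% of all genes. Tazemetostat alone and Senicapoc alone likewise called 0 members (0 at an unadjusted p under 0.05), and 0% of all genes.

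Added to Tat, Amlexanox, Tazemetostat and Senicapoc each called 0 of 10 members by limma, against 0.837%, 0% and 0.409% of all genes. At an unadjusted p under 0.05 the counts were 4, 0 and 3. In Tat-Amlexanox, Cxcl14 stood at 131, 186 and 109.6 CPM, below all Tat libraries (log2 fold change -0.86 ± 0.23, adjusted p = 0.064), and Cxcl11 at 2.67, 3.8 and 2.09 CPM, also below them (-1.63 ± 0.67, adjusted p = 0.28). Both were called with the replicate number as a block (adjusted p = 0.0085 and 0.048), in a comparison where the same-numbered libraries deviated together. In Tat-Senicapoc, Cxcl14 stood at 121, 156 and 146 CPM (-0.85 ± 0.23, adjusted p = 0.080) and Cxcl2 at 1.24, 1.36 and 1.35 CPM (-1.64 ± 0.61, adjusted p = 0.17), both below all Tat libraries. Cxcl13 in Tat-Senicapoc stood at 81.1, 196 and 99.4 CPM and overlapped Tat (-0.09, 95% interval -1.16 to 0.99), and Cx3cl1 stood at 303, 282 and 258 CPM, above all Tat libraries but not called (0.44, adjusted p = 0.34). Doses and targets of the compounds differ, and their effects were not compared with each other.

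**Figure D5:**
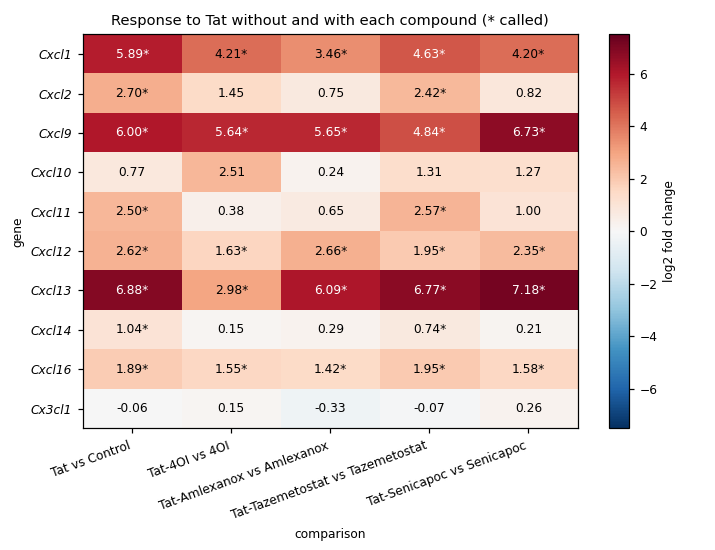
Log2 fold change of each member between Tat and Control and between Tat with a compound and that compound alone (limma; an asterisk marks an adjusted p under 0.05). Cxcl1, Cxcl9, Cxcl12, Cxcl13 and Cxcl16 carry an asterisk in all 5 columns, and Cxcl10 and Cx3cl1 in none.

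The response to Tat was then read within each compound. Against the compound alone, 5 of 10 members were higher in Tat-4OI (3.08% of all genes higher), 5 in Tat-Amlexanox (22.6%), 8 in Tat-Tazemetostat (10.4%) and 5 in Tat-Senicapoc (10.8%), and 0 were lower. Quantile normalization moved the share of calls over all genes that were higher from 57.1 to 45.8% with Amlexanox, from 65.0 to 53.1% with Tazemetostat and from 67.8 to 49.6% with Senicapoc. The same 5 members, Cxcl1, Cxcl9, Cxcl12, Cxcl13 and Cxcl16, were called in all 5 contrasts with Tat. The log2 fold changes of Cxcl1 were 3.46 to 5.89, those of Cxcl9 4.84 to 6.73, those of Cxcl12 1.63 to 2.66, those of Cxcl13 2.98 to 7.18 and those of Cxcl16 1.42 to 1.95. Cxcl10 and Cx3cl1 were called in none, with log2 fold changes of 0.24 to 2.51 and of -0.33 to 0.26. The levels of Cxcl10 in Tat-4OI (14.3 to 39.1 CPM) were nonetheless all above those in 4OI (2.59 to 5.26 CPM). Cxcl2, Cxcl11 and Cxcl14 were called in 2 contrasts, Tat vs Control and Tat-Tazemetostat vs Tazemetostat. Cxcl2, for instance, had log2 fold changes of 2.7 without a compound and 2.42 with Tazemetostat, but 0.75 with Amlexanox and 0.82 with Senicapoc, and its levels in Tat-Senicapoc (1.24 to 1.36 CPM) overlapped those in Senicapoc (0.172 to 1.82 CPM).

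The differences between these responses did not pass the test for any member other than Cxcl13 with 4OI. For Amlexanox, Tazemetostat and Senicapoc, 0 of 10 members were called by limma (3, 0 and 2 at an unadjusted p under 0.05), against 1.84%, 0% and 0% of all genes. Cxcl1 with Amlexanox had a difference of -2.42 with a 95% interval from -4.36 to -0.48 (adjusted p = 0.15), and without Amlexanox replicate 1 it was called (-3.17, adjusted p = 0.031). Cxcl2 had differences of -1.95 with Amlexanox (adjusted p = 0.21) and -1.87 with Senicapoc (adjusted p = 1.00). These contrasts share the Tat and Control libraries.

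Added to Tat-Cocaine, Tazemetostat was followed by a rise of 2 of 10 members and a fall of 0. Of all genes 15.2% were higher and 13.4% lower, so the count of members higher is near the share of all genes. Cxcl13 stood at 137, 180.4 and 63.1 CPM in Tat-Cocaine-Tazemetostat, above all Tat-Cocaine libraries (log2 fold change 1.59 ± 0.53, limma adjusted p = 0.027). Cxcl14 stood at 291, 359 and 240.3 CPM, also above all of them (0.75 ± 0.23, adjusted p = 0.020). Cxcl13 lost its call without either of 2 Tat-Cocaine or 2 Tat-Cocaine-Tazemetostat libraries, and Cxcl14 without Tat-Cocaine replicate 1 or Tat-Cocaine-Tazemetostat replicate 2 (adjusted p = 0.14 and 0.12). Microglial markers summed to 2799, 3960 (3959.9) and 2464 CPM in the same libraries, above the Tat-Cocaine sums, with 4 of 8 higher, and 6 of 7 neuronal markers were lower (sums of 792 to 1198 CPM against 1764 to 2317 CPM); their part in the 2 rises was not tested. Cx3cl1 stood at 141, 110.2 and 154 CPM, below all Tat-Cocaine libraries, and was not called (-0.54, adjusted p = 0.10).

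Amlexanox and Senicapoc in Tat-Cocaine cultures called 0 of 10 members each by limma (2 and 3 at an unadjusted p under 0.05), against 0.925% and 0.0441% of all genes. Cxcl13 stood at 139, 172 and 60.9 CPM in Tat-Cocaine-Senicapoc, above all Tat-Cocaine libraries, with a log2 fold change of 1.55 ± 0.53 close to that with Tazemetostat but a limma adjusted p of 0.19. Cxcl12 stood at 191, 247 and 173 CPM in Tat-Cocaine-Amlexanox and at 179, 224 and 182 CPM in Tat-Cocaine-Senicapoc. Its values in Tat-Cocaine were spread (59.2, 104 and 224 CPM), and without Tat-Cocaine replicate 3 it was called as higher with both (adjusted p = 0.031 and 0.042). Between cultures with and without cocaine, the effects of Amlexanox, Tazemetostat and Senicapoc differed in 0 of 10 members by limma (0, 3 and 3 at an unadjusted p under 0.05), against 0%, 0% and 0.0315% of all genes.

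The receptors of these ligands were followed from a list of 10, of which 9 are in the table and 6 passed the filter. With Tat, 1 of 6 was higher and 0 lower, a count near the share of all genes higher (14.6%). The 1 called was Ackr3, the scavenging receptor of Cxcl12 and Cxcl11. Ackr3 was at 22.4 ± 3.5 CPM in Control and 34.1 ± 2.8 CPM in Tat (mean ± SD, n = 3). Its log2 fold change was 0.60 (limma adjusted p = 0.00093). Ackr3 was lower in Tat-4OI than in Tat (20.6 ± 3.2 CPM, -0.72, adjusted p = 0.00021). Cxcr4, the signalling receptor of Cxcl12, was at 62.0 ± 21.1 CPM in Control and 37.6 ± 9.6 CPM in Tat (-0.69, adjusted p = 0.095). Cx3cr1, the microglial receptor of Cx3cl1, was at 37.7 ± 16.3 CPM in Control and 59.0 ± 26.3 CPM in Tat (0.64, adjusted p = 0.44). The receptors of the induced ligands on blood cells were scarce, with Cxcr3 at 0.242 ± 0.107 CPM and Cxcr5 at 0.496 ± 0.067 CPM in Tat, and Cxcr2 at 0.189 to 1.56 CPM.

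Of 7 further CXC and XC ligands, 4 were tested. Over all genes, 14.6% were higher and 6.7% lower with Tat, and 9.48% were lower in Tat-4OI than in Tat. With Tat, Cxcl6 (log2 fold change 6.24, limma adjusted p = 1.9e-06) and Cxcl3 (3.48, adjusted p = 1.1e-05), both ligands of CXCR2, were higher, and Pf4 (platelet factor 4, a chemokine also made by macrophages) was lower (-2.02, adjusted p = 9.1e-05). In Tat-4OI, Cxcl6 (-3.01, adjusted p = 0.016) and Cxcl17 (-2.0, adjusted p = 0.018) were lower than in Tat. Of 3 enzymes that cut chemokines, Adam17, which sheds Cx3cl1 and Cxcl16, was higher with Tat (0.66, adjusted p = 0.0074), and Adam10 (0.11) and Dpp4 (-0.0074) were not called.

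In the NF-kB list of cytokines, subunits and inhibitors, 8 of 8 tested genes were higher with Tat (median log2 fold change 1.71), among them Nfkbiz (4.00, limma adjusted p = 1.6e-11), a co-regulator, and Il1b (3.96, adjusted p = 4.2e-07), a cytokine. In Tat-4OI, 7 of 8 were lower than in Tat (median -1.16), and Rela, a subunit, was not called (-0.25, adjusted p = 0.28). Over all genes, 14.6% were higher with Tat, 9.48% were lower in Tat-4OI than in Tat, and 3.29% in Tat-Cocaine-4OI than in Tat-Cocaine. With 4OI alone, 3.15% of all genes were called in either direction. In the interferon list, 7 of 12 tested genes were higher with Tat (median 0.70). Irf7, a transcription factor, had a log2 fold change of 3.59 (adjusted p = 2.9e-05). In Tat-4OI, 5 of 12 were lower, among them Irf7 (-2.13, adjusted p = 0.012) and Irf9 (-1.14, adjusted p = 0.00087), and 1, the kinase Jak1, was higher (0.38, adjusted p = 0.00042). Without Tat, 4OI against Control already had 3 of 12 lower, again with Irf7 (-2.16, adjusted p = 0.033) and Irf9 (-0.89, adjusted p = 0.025) among them, and Jak1 higher (0.56, adjusted p = 1.7e-06). The difference between the responses to Tat with and without 4OI was called by limma in 0 of 12 interferon genes (1 at an unadjusted p under 0.05) and 0 of 8 NF-kB genes (4 at an unadjusted p under 0.05). The interferons themselves were not tested for their low levels: Ifng was at 0 to 0.152 CPM in Tat, and Ifnb1 is listed at 0 in Control, Tat, Tat-Cocaine and Tat-4OI. In Tat-Cocaine-4OI against Tat-Cocaine, 1 of 8 genes of the NF-kB list (Nfkbiz) and 2 of 12 of the interferon list (Irf7 and Irf9) were lower, and Jak1 was higher (0.32, adjusted p = 0.0040).

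Likeness to other genes was measured as Pearson's r between means of log2(CPM + 0.5) over the 16 groups, as a description, since the groups share the division by Tat. Among the members, Cxcl1 and Cxcl16 (r = 0.96), Cxcl9 and Cxcl12 (0.96), and Cxcl1 and Cxcl12 (0.96) ran closest together, Cxcl10 stood further from all of them (0.46 to 0.78), and Cx3cl1 ran with none (-0.31 to -0.019). Of 12788 other genes, those most like Cxcl1 were Ciz1, Sod2 and RGD1561113 (0.99 each). Those most like Cxcl9 were Serping1, Lcn2 and Slpi (0.98 each), those most like Cxcl12 were Susd6, Parm1 and Cxcl6 (0.99 each), and those most like Cxcl13 were AABR07003235.1, Pram1 and AABR07044390.1 (0.99 each). Cxcl16 was most like AABR07044420.2, RT1-CE3 and Zmynd15 (0.99 each), Cxcl2 most like Ptgir, Pvalb and Ahr (0.95 to 0.96), and Cxcl11 most like Spib, Zfp46 and Ptges (0.96 each). The closest genes to Cxcl10 were Herc6, Mx1 and Nemp2, at a lower r of 0.88 to 0.89, and those to Cxcl14 were Sfta2, Ccdc8 and Fbxw5 (0.93 each). Cx3cl1 ran with Lypd6, Cacna1a and Grin2a (0.93 to 0.96), of which the last 2 encode a calcium channel and an NMDA receptor subunit of neurons.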

How the data were processed

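Cultures of fetal rat cortex were profiled by polyA RNA-seq in 48 libraries. Per the labels and the study's methods, libraries were stranded and reads were trimmed, aligned with STAR and counted with featureCounts; the submitters' processing notes list Trim Galore 0.4.5, STAR 2.7.2, SAMtools 1.5 and Subread 1.5.3. The notes list the builds mRatBN7.2 and hg38 and the methods another rat build, so no positions are given for the deposited values. The signal the authors deposited is CPM after TMM normalization in edgeR, which sums to 930399 to 1046890 per library; between 85.0 and 87.3% of the values above 0 in a library are whole reads to within 0.02 reads, so no count test was run. The authors' own comparison and group average columns were not used, and 0 per-library columns were left unused.

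The 15890 genes that reached 0.5 CPM in 3 or more libraries were fitted on the log2(CPM + 0.5) scale by limma 3.58.1 under R 4.3.3, using a trended prior (eBayes), a mean for each of 16 groups and no covariates; Benjamini-Hochberg adjusted p under 0.05 was called. Exact permutation of 3 values against 3 has a smallest p of 0.1 and was not run. The fit was tested on simulated data. The 48 replicate pairs were set against each other (Pearson's r 0.963 to 0.996), and 0 pairs agreed within sampling noise, their chi-square per degree of freedom being 5.92 to 133. Replicate numbers were taken from the labels. Deviations of same-numbered libraries correlated above 0.1 in each pair in 6 of 20 comparisons (Tat-Cocaine, 4OI, Tazemetostat and Senicapoc with Control, and Tat-Amlexanox with Tat and with Amlexanox), and the blocked value stands there beside a result whose call it changes.

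All 10 members are named, and for each the 3 genes most like it among tested genes with a highest group mean of at least 5 CPM; list genes are counted, and named as examples. The members and the 13 hand-written lists were chosen with earlier results of these data known. Reads shared between genes cannot be judged from the table. Cxcl16 had whole reads, to within the same 0.02 reads, in 23 of 48 libraries. Its other values ended in 0.5 of a read, such as 662.5 reads in Cocaine replicate 1, and the reason was not tested. Motifs were searched with Python in RefSeq promoter windows of GRCr8. Intervals are 95% intervals of limma. The result of 1 list gene is not reported here.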

Additional observations from a re-analysis of the deposited data

Results flagged for a closer look

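The response of Cxcl13 to Tat differed between cultures with and without 4OI by a test of the difference itself, -3.90 on the log2 scale (limma adjusted p = 0.0063, n = 3 per group). Cxcl13 was higher with Tat in both settings, by 6.88 without 4OI and by 2.98 with it, and the call of the difference was lost under some other settings. No test for single outlying values was run on member levels, since each group has 3 libraries.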

How the results depend on the processing

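Of 2410 member values recomputed under another setting, 2372 stayed on the same side of the threshold and 0 reversed; the cause of the changes was not tested. With 0.1 CPM added, Tat-Cocaine-4OI vs Tat-Cocaine called 1 member in place of 2, Tat-Cocaine-Tazemetostat vs Tat-Cocaine 1 in place of 2, and the 8 differences between effects 0 in place of 1. Without the filter Tat-Cocaine-4OI vs Tat-Cocaine called 1. With only the compared groups in the fit, Tat-Cocaine vs Control called 3 in place of 6, Tat-Cocaine-4OI vs Tat-Cocaine 1 and the 8 differences 0; this fit gave no value for 10 of 290 member values, since the member did not pass the filter there. In the fit to 21 libraries, an alternative chosen after earlier results of these data were known, Tat-4OI vs Tat called 2 in place of 4 and Tat-Cocaine-4OI vs Tat-Cocaine 1. With the replicate block, Tat-Amlexanox vs Tat called 2 in place of 0, and the 4 compounds alone 1 in place of 0. Tat-Senicapoc vs Tat also called 2 in place of 0. Deviations of same-numbered libraries correlated there at -0.62 to 0.59 over all genes, so not every pair deviated together. Single members can still share a replicate pattern, and Cxcl16 was highest in replicate 2 in every group. The block turned 11 of 290 member values into calls and removed none.

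With each library left out in turn, the members called ranged from 7 to 8 in Tat vs Control, 0 to 1 in Cocaine vs Control, 5 to 7 in Tat-Cocaine vs Control, 2 to 6 in Tat-4OI vs Tat, 0 to 1 in Tat-Amlexanox vs Tat, 1 to 3 in Tat-Cocaine-4OI vs Tat-Cocaine, 0 to 1 in Tat-Cocaine-Amlexanox vs Tat-Cocaine, 0 to 3 in Tat-Cocaine-Tazemetostat vs Tat-Cocaine and 0 to 1 in Tat-Cocaine-Senicapoc vs Tat-Cocaine. Summed, they ranged from 0 to 2 over the 4 compounds alone, 21 to 24 over Tat with a compound against that compound (23 with all libraries) and 0 to 2 over the 8 differences. In Tat-Cocaine vs Tat, cocaine added over 5 backgrounds, Tat-Tazemetostat vs Tat and Tat-Senicapoc vs Tat the count was 0 throughout.

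Counts over all genes moved more, by over 1.5 times in 24 of 29 comparisons; Tat vs Control called 3382 genes (1252 with the compared groups only, 4253 with the block) and Tat-4OI vs Tat 2475 (1134 and 3485 in the same fits). The share of calls that were higher went from 18.8 to 33.3% in Cocaine vs Control, from 48.1 to 63.2% in Tat-Amlexanox vs Tat and from 28.6 to 15.4% in Tat-Cocaine-Senicapoc vs Tat-Cocaine after quantile normalization, and from 16.9 to 34.8% in Tat-Senicapoc vs Tat after median ratio rescaling. Depth limits Cxcl2, Cxcl9, Cxcl11 and Cxcl13 without Tat, where values under 0.5 CPM rest on few reads. It also limits Cxcl2 and Cxcl11 in Tat-4OI, where replicate 1 held 3 reads of Cxcl2 and 4 of Cxcl11.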
